A study of Mus musculus with 12 samples.

Results

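Oxidative phosphorylation genes were examined in leukaemia cells taken from mice of 4 treatment groups, with the subunits encoded in the mitochondrial genome set against those encoded in the nucleus. The members were chosen by gene symbol: the mitochondrial mt-Nd, mt-Co, mt-Cytb and mt-Atp genes and the nuclear Nduf, Sdh, Uqcr, Cox4 to Cox8 and Atp5 genes, with symbols ending in -ps left out and a mean RPKM of at least 1 over 12 libraries required. RPKM is the number of reads on a gene scaled to transcript length and library size. Of 33531 rows in the files, 98 matched by symbol and 95 of these were among the 12167 rows with a mean RPKM of at least 1. These 95 members were 13 mitochondrially encoded and 82 nuclear genes. Complex I had 7 mitochondrially encoded and 39 nuclear members, complex II 0 and 4, complex III 1 and 8, complex IV 3 and 14, and complex V 2 and 17. The complex was assigned by symbol alone, so every Nduf gene, Ndufa4 included, was counted in complex I whatever the place of its protein. The symbols also gave the class: 4 of the 82 nuclear members (Ndufb4c, Ndufs6b, Cox6c2 and Ndufa11b) are annotated as processed pseudogenes in GENCODE M21, which leaves 78 others. The 3 members below the level filter were Cox4i2, Cox6a2 and Ndufa4l2.

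The cells were CMM-tetON-shStat3, a mouse acute myeloid leukaemia line that carries a hairpin RNA against Stat3 under a promoter switched on by doxycycline (Dox) and that is marked by GFP and mCherry. They were engrafted by vein into NSG mice, an immunodeficient strain without mature T, B and NK cells that keeps its own neutrophils, monocytes and erythroid cells, and were left to reach about 1% of blood cells before treatment. The 4 groups received PBS, CpG1668 (a CpG oligonucleotide, a ligand of the DNA sensor TLR9), Dox, or CpG1668 together with Dox (CpG1668+Dox), and the labels give the schedule as 6 daily treatments in one place and as 3 treatments every other day in another. Cells with both markers were sorted from the spleen 1 day after the last treatment, RNA was sequenced, and each group had 3 libraries. All groups carried the hairpin construct, so an effect of the drug itself and an effect of the hairpin cannot be told apart in the Dox groups. Whether the 3 libraries of each group are from different mice is not stated in the labels, and a p-value here reflects the spread between libraries, which may be technical.

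Oxidative phosphorylation passes electrons from NADH (complex I) and succinate (complex II) through complex III to oxygen at complex IV, and complex V makes ATP from the proton gradient. The core subunits of all complexes but complex II are split between genomes: a few are transcribed inside the mitochondrion as long polycistronic RNAs that are cut at tRNAs, and the rest are imported. Leukaemic stem and progenitor cells are known for a strong dependence on this pathway. Doxycycline is a tetracycline, a class of drugs that can inhibit the mitochondrial ribosome.

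The sequences that follow show the 2 mitochondrial genes that changed most, the pair that shares the most bases, and the promoters of 3 nuclear genes called below. All mitochondrial coordinates are GRCm38 (mm10) positions from GENCODE M21. mt-Nd1 (ENSMUSG00000064341.1, chrM:2751-3707, plus strand) and mt-Cytb (ENSMUSG00000064370.1, chrM:14145-15288, plus strand) are each a single exon, and they lie at opposite ends of the protein-coding part of the genome. Their first 60 bases, with the start codon in capitals, are shown here.
mt-Nd1, chrM:2751-2810: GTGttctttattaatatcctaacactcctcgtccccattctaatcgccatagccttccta
mt-Cytb, chrM:14145-14204: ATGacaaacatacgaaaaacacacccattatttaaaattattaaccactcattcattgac
The last 53 bases of mt-Atp8 are shown next, because 43 of them, in capitals, are also the first bases of mt-Atp6, so reads there cannot be given to either gene alone.
mt-Atp8 and mt-Atp6, chrM:7917-7969: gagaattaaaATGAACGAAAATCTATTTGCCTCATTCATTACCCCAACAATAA
Other overlaps were 7 bases between mt-Nd4l and mt-Nd4, 14 bases between mt-Nd5 and mt-Nd6 on opposite strands, and 1 base between mt-Atp6 and mt-Co3.

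For the nuclear members, the 250 bases before the RefSeq gene start (GRCm38.p6) were searched on both strands for GCGCA followed by any base and GCGC, the core letters bound by the respiratory factor NRF1, and for CCGGAAG, an ETS-family motif of the kind bound by GABP. The NRF1 letters were present in 12 of the 66 members with a promoter sequence (18.2%) and in 771 of 8068 tested genes (9.56%). The ETS letters were present in 11 of 66 members (16.7%) and in 1290 of 8068 genes (16%). A match of each can share only an end base with the other, and a match is a description of sequence only. The promoters of Ndufb4, which holds 3 NRF1 matches in capitals, and of Ndufa1 and Ndufb11, which hold neither motif, are shown because these 3 complex I genes were called in at least 1 comparison. The Ndufb4 window, placed by RefSeq, runs past the GENCODE M21 start of the gene at 37654453. All of its matches but the first lie inside the GENCODE gene.
Ndufb4, chr16:37654369-37654618, minus strand: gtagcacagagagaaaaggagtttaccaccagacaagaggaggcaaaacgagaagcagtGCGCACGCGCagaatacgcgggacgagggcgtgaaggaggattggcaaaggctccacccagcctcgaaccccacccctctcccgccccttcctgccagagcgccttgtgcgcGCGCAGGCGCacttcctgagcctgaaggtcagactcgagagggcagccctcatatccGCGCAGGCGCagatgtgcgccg
Ndufa1, chrX:37191239-37191488, minus strand: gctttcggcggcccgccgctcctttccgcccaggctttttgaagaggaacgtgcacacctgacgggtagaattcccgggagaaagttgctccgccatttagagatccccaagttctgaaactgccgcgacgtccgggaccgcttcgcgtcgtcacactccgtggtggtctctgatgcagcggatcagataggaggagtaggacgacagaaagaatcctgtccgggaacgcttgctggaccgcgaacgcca
Ndufb11, chrX:20617620-20617869, minus strand: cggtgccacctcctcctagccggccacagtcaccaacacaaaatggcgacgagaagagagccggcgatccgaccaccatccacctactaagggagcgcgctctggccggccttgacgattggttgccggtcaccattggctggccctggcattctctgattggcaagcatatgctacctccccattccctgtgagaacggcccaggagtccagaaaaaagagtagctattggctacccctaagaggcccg

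The libraries had an estimated 30450000 to 35030000 reads. Stat3, the target of the hairpin, was not lower in the libraries labelled Dox: PBS libraries had 17.9, 16.8 and 16.9 RPKM, CpG1668 libraries 17.6, 18.5 and 18.4, Dox libraries 18.8, 19.1 and 18.8, and CpG1668+Dox libraries 19.7, 19.4 and 19.0. Groups are therefore named as labelled throughout. The progenitor genes Kit (16.5 to 18.4 RPKM as group means) and Cbfb (30.3 to 31.7) were present in all groups, whereas Cd34 was at 0.0404 to 0.395. Markers of other blood cells moved with treatment. The summed RPKM of 13 erythroid markers was 15286 to 20217 in PBS, 6758 to 11088 in CpG1668, 3924 to 8194 with Dox and 3903 to 6547 with CpG1668+Dox. The sum was carried by globin genes such as Hbb-bs, whose group means were 5819, 2891, 1465 and 1367 RPKM in that order, whereas the erythroid regulators Klf1 (49.0, 47.9, 53.3 and 47.4) and Gata1 (104, 92.3, 99.3 and 89.8) did not follow it. The sum of 13 neutrophil markers was 107 to 213, 669 to 859, 570 to 2286 and 1716 to 4488 in the same order, and that of 13 monocyte and macrophage markers 31.4 to 55.2, 143 to 169, 111 to 185 and 297 to 444. The B cell genes Ms4a1, Ighd and Jchain and the T and NK cell genes Cd3e, Cd3g, Cd4, Cd8a and Ncr1 had means under 0.1. Other genes of those lists were higher: Ighm, an immunoglobulin heavy chain, had group means of 0.461, 3.22, 1.99 and 6.64 RPKM, Cd79b 0.160 to 0.809, Cd3d 0.0399 to 0.466 and Nkg7 14.1 to 16.6. The summed B and plasma cell genes had 0.734 to 1.02 RPKM in PBS and 6.64 to 9.90 with CpG1668+Dox, without overlap, and the summed T and NK cell genes 11.5 to 16.6 and 12.7 to 23.0, with overlap. The erythroid, neutrophil and monocyte sums differed between PBS and every treated group and between CpG1668+Dox and CpG1668 without overlap. Between CpG1668 and Dox, the group means of Hbb-bs differed, and those of neutrophil genes differed in both directions. The granule genes Mpo (47.8 and 17.4 RPKM) and Elane (18.85 and 8.477) were higher in CpG1668. The rest of the neutrophil list was higher in Dox, such as S100a9 (318 and 617) and Ngp (105 and 206). These levels stand beside every comparison below, those of mt-Cytb, mt-Co2 and mt-Nd3 included, and their part in the results was not tested. Within PBS, 1 library stood apart for the mitochondrial genes: PBS 3 was the highest PBS library for 13 of 13 of them, and PBS 1 the lowest for 11. Within CpG1668+Dox, library 1 was the lowest for 13 of 13.

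The mitochondrially encoded mRNAs were the more abundant class, and the more variable one. Their summed RPKM was 28355 ± 2509 (SD, n = 3) in PBS, 24727 ± 1141 in CpG1668, 28696 ± 1219 with Dox and 26557 ± 1447 with CpG1668+Dox. The single libraries ran from 26211 to 31115 in PBS, from 23944 to 26036 in CpG1668, from 27299 to 29541 with Dox and from 24936 to 27721 with CpG1668+Dox. All 3 CpG1668 libraries thus lay below all 3 PBS and all 3 Dox libraries, while PBS, Dox and CpG1668+Dox overlapped. The gap between CpG1668 and PBS was small (26036 against 26211). These mRNAs took 2.57% to 3.24% of the estimated reads per library, or 3.12% to 3.97% with the near-identical nuclear copies given below. The summed RPKM leaves those copies out. In bulk RNA, fewer cells of a type and less RNA per cell cannot be told apart, and this holds for every level given here. The nuclear members summed to 5048 ± 197 RPKM in PBS, 5004 ± 146 in CpG1668, 5075 ± 222 with Dox and 5056 ± 147 with CpG1668+Dox, and the 4 groups overlapped. The ratio of the mitochondrial to the nuclear sum was 4.665 to 5.373 in CpG1668, 5.016 to 6.434 in PBS and 5.346 to 6.045 with Dox. By that ratio CpG1668 overlapped both PBS and Dox.

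Across single genes the mitochondrially encoded levels ran from 152 RPKM (mt-Nd6) to 6994 RPKM (mt-Co1), and the nuclear levels from 2.25 RPKM (Atp5g2) to 320 RPKM (Atp5b). The ratio of the highest to the lowest group mean had a median of 1.18 over the 13 mitochondrial genes (1.11 to 1.35), 1.05 over the 82 nuclear members (1.01 to 1.23) and 1.11 over all 12167 rows. The median coefficient of variation between libraries of a group was 5.87%, 4.24% and 5.18% in the same order. The nuclear members were also more abundant than the typical row, with a median level of 49.7 RPKM against 7.39, and no test of the class difference was made.

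Each comparison was fitted on log2(RPKM + 1) with limma over all 12167 rows, and a gene was called at a Benjamini-Hochberg adjusted p under 0.05. The log2 changes below are on that scale, which slightly understates the change of low genes such as Ndufb4. Against PBS, CpG1668 called 2 of 95 members (mt-Nd1 and Ndufb4, both lower), where 5.88% of all rows were called. Dox called 3 (mt-Nd1 and Ndufb4 lower, Ndufa1 higher), against 5.98% of all rows. CpG1668+Dox called 7, of which 4 were higher and 3 lower, against 15.5% of all rows. The shares of members called were 2.11%, 3.16% and 7.37%, each below the background of its comparison. CpG1668+Dox against CpG1668 called mt-Cytb, higher, with a background of 3.26%, and CpG1668+Dox against Dox called 0 of 95 with a background of 3.48%. At an unadjusted p under 0.05 limma took 3 of 95 members in CpG1668+Dox against Dox, where it took 13.7% of all rows, 6 in Dox against PBS (20.3%), 12 in CpG1668+Dox against PBS (29.6%), 7 in CpG1668+Dox against CpG1668 (15.4%) and 13 in CpG1668 against Dox (15.2%). CpG1668 against Dox called mt-Cytb, mt-Co2 and mt-Nd3, all lower in CpG1668, with a background of 1.56%. The comparisons against PBS share the same PBS libraries and are not independent of each other.

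Counts of members whose 2 groups did not overlap at all, by direction, were set beside the share of all rows with no overlap. In CpG1668 against PBS, 7 mitochondrial and 4 nuclear members were lower (14.3% of all rows) and 1 and 5 higher (11.3%). In CpG1668 against Dox, 8 mitochondrial and 3 nuclear members were lower (14.4%) and 0 and 2 higher (5.15%). These are the comparisons in which most mitochondrial genes separated, and both use the CpG1668 libraries. In Dox against PBS, 1 mitochondrial and 2 nuclear members were lower (9.81%) and 1 and 3 higher (15.2%), and in CpG1668+Dox against PBS 1 and 4 were lower (16.6%) and 0 and 6 higher (18.8%). In CpG1668+Dox against CpG1668, 1 and 2 were lower (5.26%) and 4 and 10 higher (15.2%), and in CpG1668+Dox against Dox 1 and 1 were lower (10.3%) and 0 and 5 higher (8.84%).

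The number of calls depended on single libraries. In CpG1668+Dox against PBS the 7 calls became 2 without CpG1668+Dox 1 or without PBS 1. They became 3 without CpG1668+Dox 3, PBS 2 or PBS 3, and 4 without CpG1668+Dox 2, Dox 2 or Dox 3. These are net counts that can include members not called with all libraries in. Without PBS 1, mt-Nd1 alone of the 7 stayed called, and without Dox 2, mt-Nd1, Ndufa1 and Ndufb11 did. In Dox against PBS the 3 calls became 0 without Dox 2 and 1 without Dox 3. In CpG1668 against Dox the 3 calls became 1 without any single CpG1668 or Dox library, without CpG1668+Dox 2 or without PBS 2. The call of mt-Cytb in CpG1668+Dox against CpG1668 was lost without any single CpG1668 library or without CpG1668+Dox 3.

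**Figure D1:**
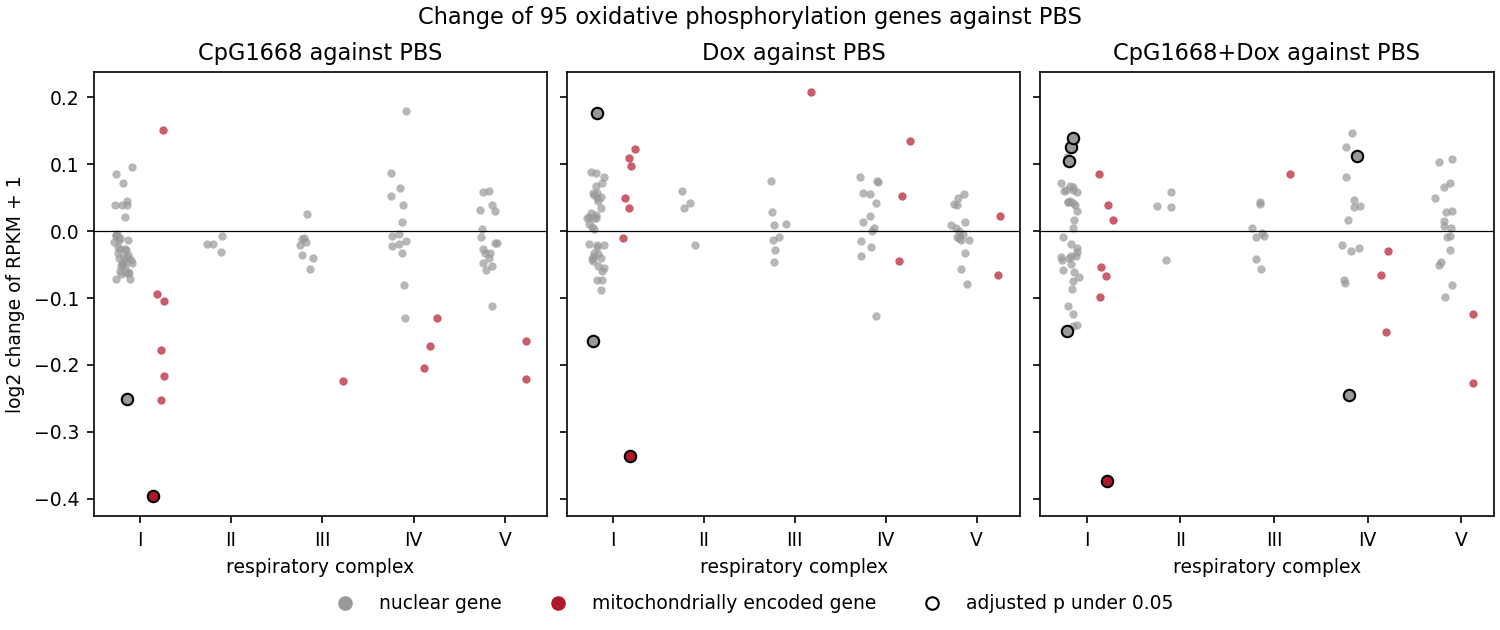
Log2 change of RPKM + 1 against PBS (vertical axis) of the 95 members, by respiratory complex (horizontal axis), in CpG1668, Dox and CpG1668+Dox; each point is 1 gene, grey for nuclear and red for mitochondrially encoded, and a black ring marks an adjusted p under 0.05. Nuclear genes lie near 0 in all 3 panels, mt-Nd1 is the lowest point of each panel (-0.40, -0.34 and -0.37), and most mitochondrial genes lie below 0 after CpG1668 but not after Dox.

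The fitted changes of the nuclear members stayed small. Their median log2 change was -0.02 in CpG1668, 0.01 in Dox and 0.00 after both agents, each against PBS, and the median over all rows was -0.01, 0.01 and 0.00. The 95% interval of the change lay within 0.25 on the log2 scale on either side of 0 for 75, 77 and 75 of the 82 nuclear members in these comparisons, or 91.5%, 93.9% and 91.5%. Over all rows the same held for 67.7%, 67.9% and 61.5%. The median standard error was 0.051 for nuclear members and 0.057 for all rows, so nuclear members were measured slightly more tightly. For the mitochondrially encoded genes the interval lay within that range for 2, 7 and 8 of 13, with a median standard error of 0.070.

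After CpG1668 most mitochondrially encoded genes had a negative fitted change. The median over the 13 was -0.18 against PBS, and 12 of 13 were negative, the exception being mt-Nd6 at 0.15. At an unadjusted p under 0.05 were 8 of the 13 and 5 of the 82 nuclear members, where 20.5% of all rows were. After adjustment mt-Nd1 was called among the 13 and Ndufb4 among the 82. The difference between the mitochondrial and the nuclear median was -0.16, and it was -0.06 without PBS 3 and -0.26 without PBS 1, so its size rested on single PBS libraries although its sign did not change. Against Dox, where no PBS library enters the group means, the median over the 13 was also -0.18, with 12 of 13 negative, and the difference from the nuclear median was -0.13 to -0.21 with any 1 library left out. The medians in Dox and in CpG1668+Dox against PBS were 0.05 and -0.06, and their differences from the nuclear medians changed sign without PBS 1 (-0.02 in Dox) and without PBS 3 (0.03 in CpG1668+Dox). CpG1668+Dox against Dox had a median of -0.11, with 13 of 13 negative and 0 called, and CpG1668+Dox against CpG1668 a median of 0.08.

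mt-Nd1, a core membrane subunit of complex I at the ubiquinone site, was called lower than PBS in all 3 treated groups. PBS libraries had 2954, 3085 and 3362 RPKM. CpG1668 libraries had 2551, 2335 and 2256, Dox libraries 2648, 2416 and 2380, and CpG1668+Dox libraries 2337, 2420 and 2491. All 9 treated libraries lay below all 3 PBS libraries, and the treated groups overlapped each other. The log2 change was -0.40 (SE 0.066, adjusted p = 0.0051) in CpG1668, -0.34 (adjusted p = 0.013) in Dox and -0.37 (adjusted p = 0.0026) in CpG1668+Dox by limma, or 0.760, 0.792 and 0.772 times the PBS level. The pairwise differences among the treated groups were -0.06 (CpG1668 against Dox, 95% interval -0.20 to 0.08), 0.02 (CpG1668+Dox against CpG1668, -0.12 to 0.17) and -0.04 (CpG1668+Dox against Dox, -0.18 to 0.11), with 0 of them called. The call in Dox was lost without Dox 2 (-0.32, adjusted p = 0.062) and without Dox 3 (-0.31, adjusted p = 0.055), and the calls in CpG1668 and CpG1668+Dox were kept with any 1 library left out. With no filter on low genes the calls in CpG1668 (adjusted p = 0.074 by limma) and Dox (adjusted p = 0.14) were lost, and that in Dox also in a fit of only the groups compared (adjusted p = 0.054). Under quantile normalization all 3 calls were lost (-0.16, -0.07 and -0.09). Between 70412 and 98897 estimated reads lay on mt-Nd1 in each library, so the counting error was at most 0.377% and far below the spread between libraries. mt-Nd1 made up 10.8% to 11.3% of the mitochondrial sum in PBS, 9.42% to 9.80% in CpG1668, 8.14% to 8.96% with Dox and 8.96% to 9.37% with CpG1668+Dox, so that PBS again stood above every treated library.

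mt-Cytb encodes cytochrome b, the only mitochondrially encoded subunit of complex III, and it moved differently from mt-Nd1 in the Dox groups. Its level was 2945, 2920 and 3199 RPKM in PBS, 2618, 2585 and 2554 in CpG1668, 3494, 3485 and 3477 with Dox, and 2946, 3148 and 3547 with CpG1668+Dox. The CpG1668 libraries were all below, and the Dox libraries all above, the PBS libraries, and the CpG1668+Dox libraries spread over the PBS and Dox range. CpG1668 against Dox gave a log2 change of -0.43 (SE 0.064, adjusted p = 0.010 by limma), a ratio of 0.742, and this call was kept with any 1 library left out. CpG1668+Dox was above CpG1668 by 0.31 (adjusted p = 0.026), and the adjusted p was 0.080, 0.094 and 0.068 without CpG1668 1, 2 and 3 and 0.083 without CpG1668+Dox 3. That call was also lost with equal nuclear sums (adjusted p = 0.069), with no filter (adjusted p = 0.23) and in a fit of only the groups compared (adjusted p = 0.099). Against PBS the change was -0.22 in CpG1668 (adjusted p = 0.067) and 0.21 in Dox (adjusted p = 0.087), and neither was called. Leaving out a library of a group outside the contrast made the call in CpG1668 without CpG1668+Dox 1 (adjusted p = 0.045) or CpG1668+Dox 3 (adjusted p = 0.026), and in Dox without CpG1668+Dox 3 (adjusted p = 0.034). Quantile normalization turned the change in CpG1668 to 0.15 and raised that in Dox to 0.46.

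The ratio of mt-Nd1 to mt-Cytb within a library does not depend on library scaling. It was 1.003, 1.057 and 1.051 in PBS, 0.9745, 0.903 and 0.884 in CpG1668, 0.758, 0.693 and 0.685 with Dox, and 0.793, 0.769 and 0.702 with CpG1668+Dox. The PBS, CpG1668 and Dox libraries formed separate ranges in that order, and CpG1668+Dox overlapped Dox only. The pair was picked after the values were seen, so the ratio is given as a description with no test.

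**Figure D2:**
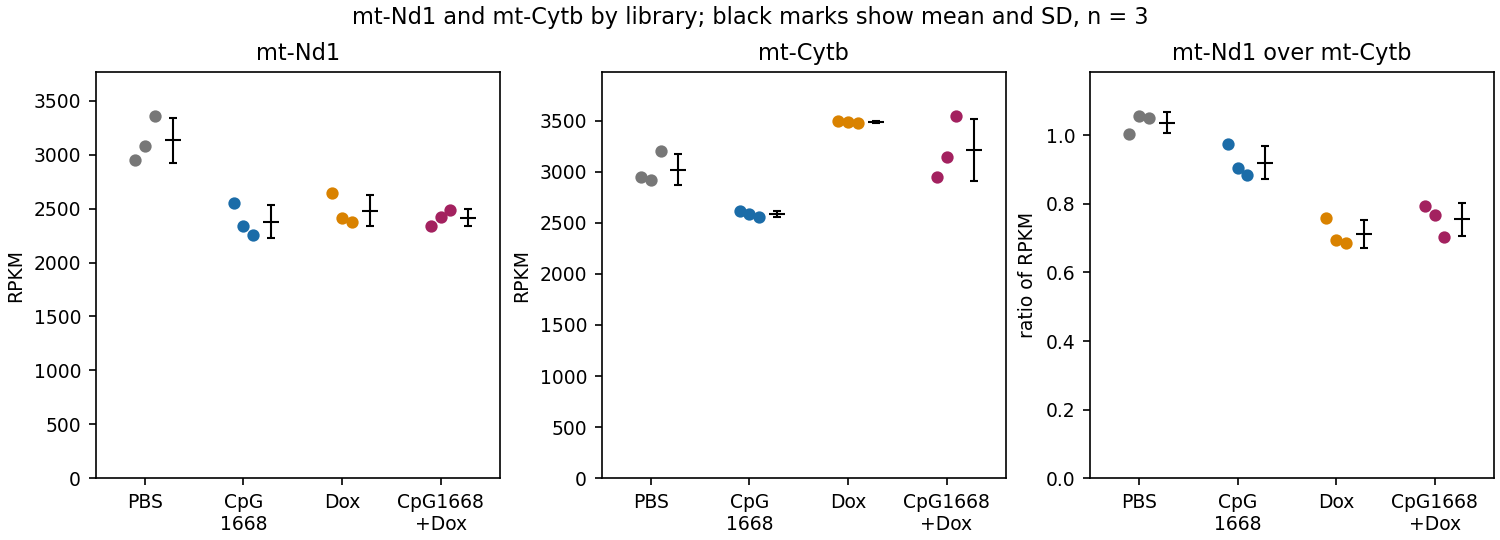
RPKM of mt-Nd1 (left) and mt-Cytb (middle), and their ratio (right), in the 12 libraries by treatment group; coloured points are libraries and black marks the mean and SD of 3. mt-Nd1 is lower in every treated library than in PBS, mt-Cytb is lowest in CpG1668 (2554 to 2618 RPKM) and highest in Dox (3477 to 3494 RPKM), apart from 1 CpG1668+Dox library at 3547, and the ratio falls from 1.003 to 1.057 in PBS to 0.685 to 0.758 in Dox.

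Among the other complex I genes of the mitochondrial genome, mt-Nd3 was called in 1 comparison. Its level was 171, 185 and 213 RPKM in PBS, 157, 161 and 159 in CpG1668, 228, 198 and 194 with Dox, and 179, 195 and 200 with CpG1668+Dox. CpG1668 lay below each of the other groups without overlap, and its change against Dox was -0.38 (adjusted p = 0.046 by limma). That call was lost in 9 of 12 fits that left out 1 library: any CpG1668 or Dox library, CpG1668+Dox 1, CpG1668+Dox 2 or PBS 2, with an adjusted p of 0.054 to 0.15. mt-Nd2, another membrane subunit, gave -0.22 in CpG1668 against PBS (adjusted p = 0.071) and -0.25 against Dox (adjusted p = 0.078). mt-Nd4, mt-Nd4l and mt-Nd5, which complete the proton-pumping arm, were called in 0 of the 7 comparisons, and their changes against PBS ran from -0.18 to 0.10. mt-Nd6, the only protein gene of the opposite strand, had 141, 140 and 153 RPKM in PBS and 160, 161 and 160 in CpG1668. It was higher in all 3 CpG1668 libraries than in PBS, with a change of 0.15 that was not called (adjusted p = 0.12).

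The 3 mitochondrially encoded subunits of complex IV carry its redox centres (mt-Co1 and mt-Co2) and a structural core (mt-Co3). mt-Co2 had 2604, 2739 and 3010 RPKM in PBS, 2500, 2327 and 2414 in CpG1668, 3081, 2901 and 3176 with Dox, and 2496, 2767 and 2920 with CpG1668+Dox. CpG1668 lay below PBS and Dox without overlap, and the change against Dox was -0.34 (adjusted p = 0.039 by limma). That call was lost in 8 of 12 fits without 1 library: any CpG1668 or Dox library, CpG1668+Dox 2 or PBS 2, with an adjusted p of 0.057 to 0.13. mt-Co1, the most abundant of all members, had 7162 ± 331 RPKM in PBS, 6542 ± 153 in CpG1668, 7428 ± 351 with Dox and 6844 ± 206 with CpG1668+Dox (SD, n = 3). It was not called (-0.13 in CpG1668 against PBS, adjusted p = 0.20, and -0.18 against Dox, adjusted p = 0.13), nor was mt-Co3 (-0.17 and -0.13).

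For complex V, mt-Atp6, which forms the proton channel with the c ring, and mt-Atp8, a small partner subunit, were the noisiest of the class. mt-Atp8 had 1210, 1499 and 2184 RPKM in PBS, with a mean coefficient of variation within groups of 18.9%, and mt-Atp6 had 2548, 2895 and 3396 in PBS, with 9.94%. All 4 groups overlapped for both genes. Changes against PBS were -0.22, 0.02 and -0.12 for mt-Atp6 and -0.16, -0.07 and -0.23 for mt-Atp8 in CpG1668, Dox and CpG1668+Dox, and 0 were called.

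**Figure D3:**
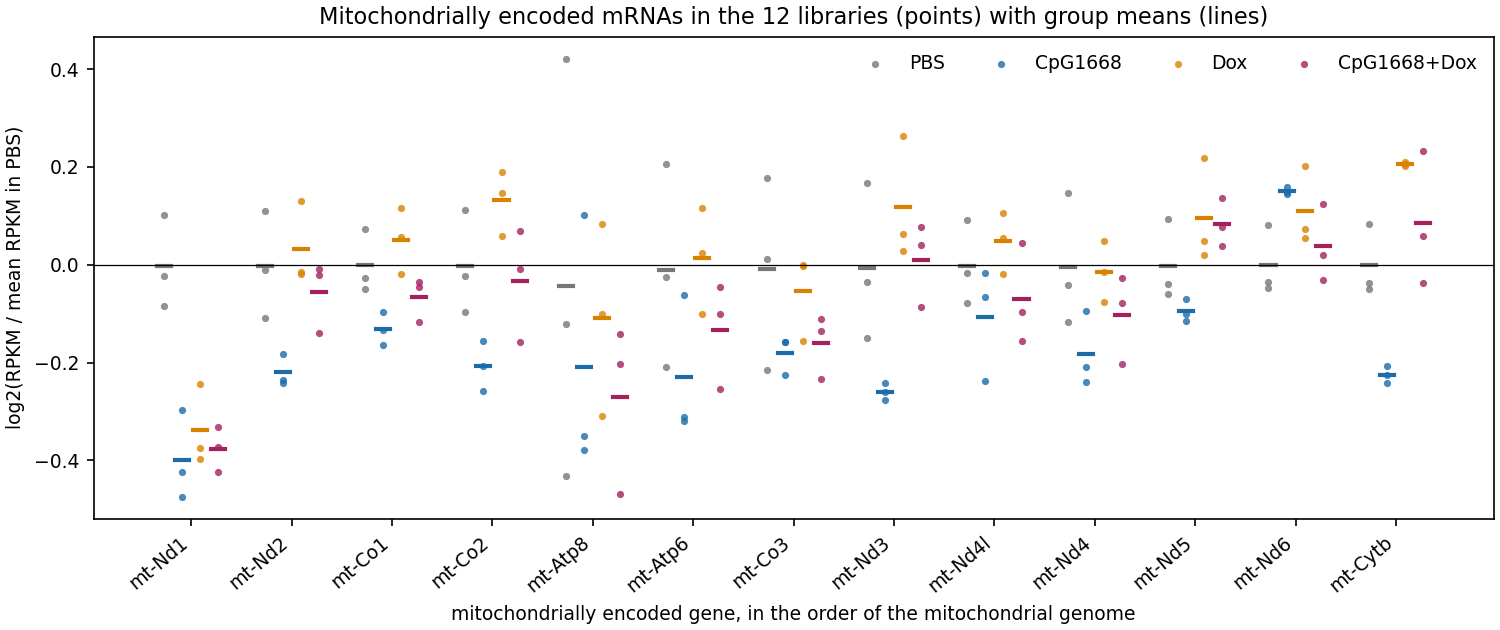
Log2 of RPKM over the mean RPKM in PBS (vertical axis) for the 13 mitochondrially encoded mRNAs in the order of the genome (horizontal axis); points are the 12 libraries and short lines group means of the log2 values. mt-Nd1 separates PBS from the treated groups, mt-Cytb and mt-Nd3 separate CpG1668 from Dox, and mt-Atp8 and mt-Atp6 spread widely within PBS.

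Reads of some mitochondrial genes were shared with near-identical nuclear copies in the reference. By BLAST, mt-Atp6, mt-Co2, mt-Co3 and mt-Nd4l each have a nuclear copy identical over 678, 681, 783 and 294 bases, and mt-Nd3 has one with 99.7% identity over 345 bases. mt-Co1 has one with 99.8% identity over 483 bases. These copies had 2371 to 3407 (Gm10925, of mt-Atp6), 2740 to 3621 (Gm28661, of mt-Co2), 1607 to 2137 (Gm28437, of mt-Co3), 546 to 803 (Gm10222, of mt-Nd4l), 217 to 320 (Gm28438, of mt-Nd3) and 724 to 1073 RPKM (Gm29216, of mt-Co1). The levels of these 6 genes, and their order, are therefore uncertain. mt-Nd4 also has a copy identical over 876 bases, Gm28439, which had at most 0.129 RPKM. Identical copies thus had very unlike levels. Further copies of mt-Co1, mt-Co2, mt-Nd2 and mt-Nd5, at an identity of at least 95%, had at most 4.474 RPKM. With copies joined to their genes by their estimated reads, mt-Nd3 stayed called in CpG1668 against Dox (-0.38, adjusted p = 0.040) and mt-Co2 did not (-0.32, adjusted p = 0.051). Among annotated GENCODE M21 transcripts, mt-Nd1 and mt-Cytb had no such copy at an identity of at least 95% over 100 bases. The genome sequence was not searched, so nuclear copies without an annotated transcript could not be found.

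Among nuclear complex I members, Ndufa1 was called higher than PBS in both groups that received Dox. It encodes a small accessory subunit of the membrane arm and lies on chromosome X (37187588 to 37191163, minus strand). PBS libraries had 76.3, 79.9 and 76.7 RPKM, CpG1668 libraries 81.2, 83.9 and 82.1, Dox libraries 85.9, 89.5 and 88.3, and CpG1668+Dox libraries 87.3, 83.4 and 83.7. All 9 treated libraries exceeded all PBS libraries. In CpG1668 the change was 0.085 (adjusted p = 0.17 by limma) and was not called. The CpG1668 libraries overlapped those of CpG1668+Dox. The change was 0.18 in Dox (SE 0.033, adjusted p = 0.010 by limma), or 1.13-fold, and 0.13 in CpG1668+Dox (adjusted p = 0.025), or 1.09-fold. The call in Dox was lost without Dox 2 (adjusted p = 0.057), and that in CpG1668+Dox without CpG1668+Dox 1 (0.097), PBS 1 (0.080) or PBS 3 (0.076).

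Ndufb11 and Ndufv3 were called higher in CpG1668+Dox than in PBS. Ndufb11, an accessory subunit of the membrane arm on chromosome X (20615326 to 20617619, minus strand), had 50.1, 53.6 and 53.0 RPKM in PBS and 56.6, 56.7 and 59.5 in CpG1668+Dox. CpG1668 libraries had 55.93, 56.49 and 55.13 RPKM and Dox libraries 54.66, 55.15 and 55.99, so every treated library lay above PBS. The change was 0.10 in CpG1668 (adjusted p = 0.14 by limma) and 0.08 in Dox (adjusted p = 0.21), and neither was called. In CpG1668+Dox the change was 0.14 (adjusted p = 0.018 by limma), with an adjusted p of 0.074 without CpG1668+Dox 3 and 0.064 without PBS 1. Exons of Ndufb11 overlap those of Rbm10 on the opposite strand, and the sources used here do not give the strand setting of the counting. Ndufv3, an accessory subunit of the NADH-oxidising module (chromosome 17, 31520115 to 31531331, plus strand), had 12.5, 12.4 and 11.8 RPKM in PBS and 13.2, 13.3 and 13.3 in CpG1668+Dox. Its change of 0.11 (adjusted p = 0.047) lost its call in 11 of 12 fits without 1 library, the fit without CpG1668 1 being the exception, and the highest adjusted p was 0.16 (without PBS 3). Ndufc2, a membrane arm subunit, just missed in the same comparison (-0.14, adjusted p = 0.052).

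Ndufb4 was called lower in all 3 treated groups, but its reads were shared with a pseudogene. Ndufb4 (chromosome 16, 37647170 to 37654453, minus strand), an accessory subunit of the membrane arm, had 5.79, 5.92 and 6.09 RPKM in PBS, 4.89, 4.60 and 4.97 in CpG1668, 5.41, 5.16 and 4.996 with Dox, and 5.40, 4.99 and 5.37 with CpG1668+Dox. Every treated library lay below PBS, with changes of -0.25 (adjusted p = 0.0059 by limma), -0.16 (0.047) and -0.15 (0.037). The processed pseudogene Ndufb4c (chromosome 15, 73809507 to 73809896, minus strand) is identical to the Ndufb4 transcript over all of its 390 bases and had 88.7 to 106 RPKM. With both joined by their estimated reads, the level was 42.3 to 48.4 RPKM in PBS, 42.2 to 43.5 in CpG1668, 41.6 to 47.1 with Dox and 41.0 to 44.6 with CpG1668+Dox, which overlap. The joined changes were -0.07 (adjusted p = 0.53), -0.00 (0.99) and -0.07 (0.41), and 0 of the 3 calls remained. With Ndufb4c kept apart, the call in Dox was also lost in 10 of 12 fits that left out 1 library, and that in CpG1668+Dox in 7, while that in CpG1668 was kept in all 12. The other pseudogenes among the members, Ndufs6b, Cox6c2 and Ndufa11b, are 96.6%, 97% and 94.8% identical to their parent transcripts and were not called.

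The remaining nuclear complex I members gave no call, and the range of changes over all 39 was -0.25 to 0.10 in CpG1668, -0.16 to 0.18 with Dox and -0.15 to 0.14 with CpG1668+Dox against PBS. Complex II and the nuclear part of complex III had 0 called members in the 7 comparisons. In complex II, the flavoprotein gene Sdha had 54.1 ± 2.11 RPKM in PBS, 53.9 ± 0.133 in CpG1668, 55.8 ± 2.24 with Dox and 55.5 ± 1.69 with CpG1668+Dox (SD, n = 3), and the membrane anchor gene Sdhd 107 ± 1.51, 105 ± 1.82, 105 ± 6.83 and 104 ± 4.40. All 4 Sdh genes had their 95% interval within 0.25 of 0 in each comparison. In complex III, Uqcr10, a small subunit, had 130 ± 5.86 RPKM in PBS and 129 ± 10.1, 131 ± 6.47 and 130 ± 7.67 in CpG1668, Dox and CpG1668+Dox, and Uqcrh, the hinge protein beside cytochrome c1, had 87.9 ± 2.91, 89.6 ± 4.95, 88.6 ± 1.64 and 90.8 ± 6.99. Their changes, like those of all 8 nuclear members of complex III, lay between -0.06 and 0.07 against PBS. mt-Cytb was thus the only member of complex III that was called in any comparison.

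In complex IV, Cox7a2l and Cox6b2 were called in CpG1668+Dox against PBS. Cox7a2l (chromosome 17, 83501918 to 83517330, minus strand) encodes a protein that joins complexes III and IV into supercomplexes. It had 92.3, 92.9 and 91.8 RPKM in PBS and 101.9, 96.2 and 101.8 in CpG1668+Dox. CpG1668 libraries had 94.13, 97.58 and 98.27 and Dox libraries 95.46, 99.55 and 96.96, so every treated library lay above PBS. The change was 0.06 in CpG1668 (adjusted p = 0.31 by limma) and 0.07 in Dox (adjusted p = 0.24), and neither was called. In CpG1668+Dox the change was 0.11 (adjusted p = 0.044 by limma). That call was lost in 8 of 12 fits without 1 library (CpG1668 2, CpG1668+Dox 1 and 3, Dox 2 and 3, and PBS 1, 2 and 3), with an adjusted p of up to 0.14. Cox6b2 (chromosome 7, 4751792 to 4753094, minus strand), known as the testis form of subunit 6B, had 28.6, 30.7 and 24.6 RPKM in PBS and 23.5, 21.6 and 25.0 in CpG1668+Dox. Those groups overlapped, and the change of -0.25 (adjusted p = 0.043) lost its call in 9 of 12 such fits (all but those without CpG1668 2, CpG1668+Dox 3 or PBS 3), with an adjusted p of up to 0.15. The abundant nuclear members of the complex were not called: Cox6a1 had 249 ± 9.91, 243 ± 14.7, 251 ± 9.69 and 243 ± 11.3 RPKM in PBS, CpG1668, Dox and CpG1668+Dox, and Cox6b1 had 217 ± 6.76, 214 ± 7.003, 220 ± 11.8 and 219 ± 10.6.

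**Figure D4:**
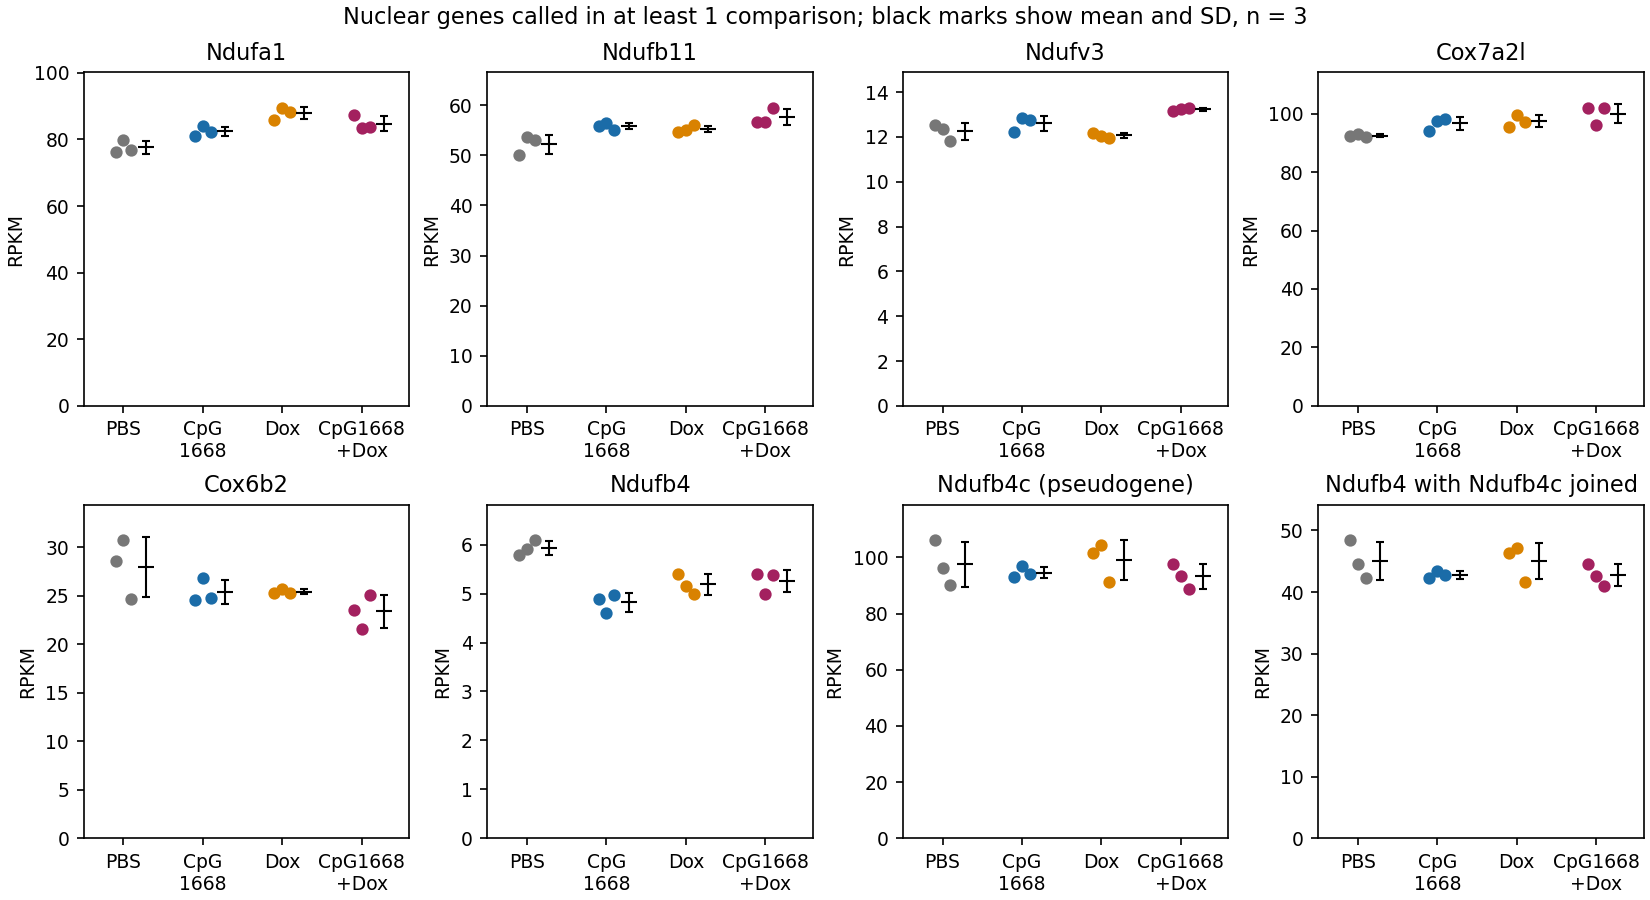
RPKM of the 6 nuclear members called in at least 1 comparison, of the pseudogene Ndufb4c and of Ndufb4 with Ndufb4c joined by estimated reads, in the 12 libraries by group; coloured points are libraries and black marks the mean and SD of 3, on axes that start at 0. The called differences are small beside the level (1.13-fold for Ndufa1 in Dox), and the separation of Ndufb4 from PBS is not seen in the joined values.

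Paralogous subunits differed in mRNA level in these libraries, and protein was not measured. Mean levels over the 12 libraries were 161 RPKM for Cox4i1 and 0.355 for Cox4i2, the form linked to lung and low oxygen. They were 246 for Cox6a1 and 0.0559 for the muscle form Cox6a2, and 217 for Cox6b1 and 25.5 for Cox6b2. Cox7a2 had 99.7 and the muscle form Cox7a1 3.29, and Ndufa4 had 62.4 and Ndufa4l2 0.0702. A gene of 1 kb with 3 reads would have 0.0856 to 0.0985 RPKM in these libraries, so the means of Cox6a2 and Ndufa4l2 lay below that level. Their highest group means, 0.102 for Cox6a2 in CpG1668 and 0.125 for Ndufa4l2 in Dox, lay above it. In complex V, Atp5g1, Atp5g2 and Atp5g3, which encode the same mature c subunit, had 9.56, 2.25 and 74.5 RPKM. The catalytic pair Atp5a1 and Atp5b had 311 ± 12.1 and 325 ± 12.4 RPKM in PBS, 309 ± 3.69 and 319 ± 9.45 in CpG1668, 310 ± 16.3 and 323 ± 19.7 with Dox, and 305 ± 7.07 and 314 ± 11.1 with CpG1668+Dox. None of the 17 nuclear complex V members was called in any of the 7 comparisons, and their changes against PBS ran from -0.11 to 0.11.

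The interaction of CpG1668 and Dox asks whether the combined treatment departed from the sum of the single ones. By limma it called 0 of 95 members, with 0% of all rows called, and at an unadjusted p under 0.05 it took 4 members, 2 mitochondrial and 2 nuclear, where it took 6.67% of all rows. For mt-Nd1 the interaction was 0.36 (95% interval 0.16 to 0.56, adjusted p = 0.50).

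Genes that build or serve the complexes were counted in lists chosen by function. Factors that assemble complex I (15 tested) and complexes II, III and V (11 tested) had 0 called genes in all 7 comparisons. Of 22 complex IV assembly factors, Cox15, an enzyme of haem A synthesis, fell by 0.15 on the log2 scale in CpG1668+Dox against PBS (adjusted p = 0.038 by limma). Of 5 further subunits and carriers, Atpif1, the inhibitor of ATP synthase, was lower in the same comparison (adjusted p = 0.0497 by limma). It had 183 ± 7.22 RPKM in PBS and 168 ± 4.90 in CpG1668+Dox. The calls of Cox15 and Atpif1 were 4.55% and 20% of their lists, against 15.5% of all rows.

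Of 34 genes for replication and transcription of mitochondrial DNA and for processing of its RNA, 5 were lower and 0 higher in CpG1668+Dox against PBS. They were Pnpt1, the mitochondrial polynucleotide phosphorylase (31.5 ± 0.360 RPKM in PBS and 26.8 ± 0.573 in CpG1668+Dox, -0.22, adjusted p = 0.0036 by limma), its partner helicase Supv3l1 (-0.16, adjusted p = 0.041), the RNase P nuclease Prorp (-0.18, 0.023), the tRNA-end nuclease Elac2 (-0.17, 0.040) and the RNA-binding Fastkd2 (-0.15, 0.043). The list's median was -0.06, against 0.00 for all rows, and 5 of 34 is close to the background of 15.5%. In the same list, Mgme1, an exonuclease of mitochondrial DNA, was higher in Dox than in PBS (0.23, adjusted p = 0.022 by limma). That call was 2.94% of the list, against 5.98% of all rows. In CpG1668 against PBS 0 were called, against 5.88% of all rows. Of 8 mitochondrial rRNA and tRNA rows tested, 0 were called in any comparison.

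Of 77 mitochondrial ribosomal protein genes, Mrps2 and Mrps36 were lower in CpG1668 than in PBS (-0.15 and -0.24) and in CpG1668+Dox than in PBS (-0.13 and -0.24), and 0 were called in Dox. Of 89 cytosolic ribosomal protein genes, 5 were higher and 1 lower in CpG1668+Dox than in PBS, with a list median of 0.08. Of 18 genes of the tricarboxylic acid cycle and pyruvate dehydrogenase, the NADP-linked enzyme Idh2 was higher in CpG1668+Dox (0.18, adjusted p = 0.022). Of 12 transcriptional regulators of respiratory genes, Hif1a was higher in Dox (0.16) and in CpG1668+Dox (0.14), and Nfe2l2 in CpG1668+Dox (0.18). In CpG1668+Dox against PBS the shares called were 2.60%, 6.74%, 5.56% and 16.7% of these 4 lists, against 15.5% of all rows, so that 3 lists lay below the background and the regulators close to it. In CpG1668 against PBS they were 2.60% and 2.25% of the mitochondrial and cytosolic ribosomal lists, against 5.88% of all rows, and in Dox against PBS 1 of 89 cytosolic ribosomal genes and 1 of 12 regulators were called, against 5.98%.

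Among the called genes of these lists the largest change was that of Slc25a4, the muscle and heart form of the ADP/ATP carrier, among 6 carriers and porins. It had 6.87 ± 0.799 RPKM in PBS, 8.34 ± 0.642 in CpG1668, 7.57 ± 0.0895 with Dox and 9.84 ± 0.640 with CpG1668+Dox (SD, n = 3). It rose by 0.47 in CpG1668+Dox against PBS (adjusted p = 0.0011 by limma) and by 0.34 against Dox (adjusted p = 0.024). The other 5 genes of that list were not called in any comparison. The call of Slc25a4 was 16.7% of the list in each comparison. All rows were called at 15.5% in CpG1668+Dox against PBS and at 3.48% in CpG1668+Dox against Dox.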

How the data were processed

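RNA-seq of sorted leukaemia cells was available as 12 files of RPKM values, 1 per library, deposited by the authors. Per the submitters' processing notes the tools were STAR 2.7.9 and Partek 7.18.0723 and the genome build was mm10, with no role or order given. Counting settings, strand and annotation were not given in the sources used here, so shares of reads are uncertain for genes with near-identical copies. Depth was estimated from the step of 1 read in genes with 1 transcript: 71.5% to 72.9% of such genes lay within 0.05 of a whole read, so reads were not recovered gene by gene. The counting error given covers reads only, without molecular identifiers.

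Groups came from the sample titles. log2(RPKM + 1) of rows with a mean RPKM of at least 1 was modelled in limma (3.58.1, under R 4.3.3) with 4 group means, 8 residual degrees of freedom and an intensity trend. Benjamini-Hochberg adjustment ran over all 12167 rows of each of 7 contrasts. Copies were found with BLAST 2.17.0, and 32391 of 33531 symbols (96.6%) matched GENCODE M21. The pattern for cytosolic ribosomal proteins also matched S6 kinase genes, which were left out.

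The members, lists and tests were chosen with earlier results of these data known. Named were all mitochondrial members, the 2 most abundant nuclear members of each complex, all called members (up to 12 per contrast) and alternative isoforms. Ndufc2, the mt-Nd1 to mt-Cytb ratio and the printed promoters were picked with their values in view. The pseudocount, filter, scaling, trend, set of groups fitted and replicate block were varied, and every library was left out once. The fit was tested on simulated data with known changes. Within groups, Pearson r across genes was 0.992 to 0.996, 0 pairs of libraries were identical, and 11 of 12 libraries correlated best with one of their own group.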

Additional observations from a re-analysis of the deposited data

How the results depend on the processing

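Calls among members were few and many lay near the threshold. In CpG1668 against PBS the 2 calls became 1 with no filter, with quantile normalization or with copies joined (an alternative added after the data were seen), and were 2 to 3 with 1 library left out. In Dox against PBS the 3 became 1 with no filter and 0 in a fit of only the groups compared (0 to 3 with 1 library left out). In CpG1668+Dox against PBS the 7 became 4 with no intensity trend and 2 in a fit of only the groups compared. They became 4 with the replicate block (2 to 6 with 1 left out). These are net counts: in the fit of only the groups compared, mt-Nd1 alone of the 7 stayed called. With the replicate block, mt-Nd1, Ndufa1 and Ndufb11 did. In CpG1668+Dox against CpG1668 the 1 became 0 with equal nuclear sums or no filter and 2 with quantile normalization (0 to 1), and the 1 in a fit of only the groups compared was mt-Nd3 in place of mt-Cytb. In CpG1668+Dox against Dox the 0 became 1 with median-of-ratios scaling, no filter or quantile normalization (0 throughout with 1 left out). In CpG1668 against Dox the 3 became 1 with equal nuclear sums, median-of-ratios scaling, only the groups compared or the replicate block, and 0 with no filter (1 to 3). The interaction stayed at 0. Where no library was left out and copies were not joined, the cause was not tested.

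The replicate numbers did not pair the libraries: same-numbered libraries deviated together with r of -0.21 to 0.27, and 2 of 18 pairs passed 0.1. The median difference between mitochondrial and nuclear members moved by less than the spread between libraries (0.147) in each alternative. That spread is an SD pooled over the groups, which was 0.2575 in PBS and 0.0731 to 0.0966 in the others. It was close to or above the size of the differences themselves. Staying within it therefore does not show that they were stable, and some changed sign. With 1 library left out the median difference was -0.26 to -0.06 in CpG1668 against PBS, -0.02 to 0.15 in Dox, -0.14 to 0.03 in CpG1668+Dox, 0.01 to 0.13 in CpG1668+Dox against CpG1668, -0.14 to -0.03 against Dox, -0.21 to -0.13 in CpG1668 against Dox and -0.06 to 0.15 in the interaction. Quantile normalization reversed mt-Cytb in CpG1668 against PBS (0.15), in the interaction (-0.10) and in CpG1668+Dox against Dox (0.050), and that cause was not tested. It also raised mt-Cytb past the threshold in Dox against PBS (0.46) and in CpG1668+Dox against PBS (0.51).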
